A study of Homo sapiens with 18 samples.

Results

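The genes described here encode the enzymes that activate, degrade or are inhibited by 5-fluorouracil (5-FU), together with a nucleoside transporter. The set was chosen by function and holds 9 genes: TYMS, TK1, RRM2, UMPS, UCK2, TYMP, UPP1, DPYD and SLC29A1. Every array probe whose RefSeq transcript or symbol led to a single gene of this set was taken. Probes whose accession was shared by several genes, or was not in the RefSeq gene list used, could not be named. Probes were found for 8 genes, with 1 probe each for 7 of them and 2 for DPYD, which makes 9 probes out of 42405 on the array and 8 genes out of 19740 that could be named. No probe was named UPP1, and this gene was not analysed here.

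The cells were the human hepatocellular carcinoma (HCC) lines Huh1 and Huh7. They were treated for 48 hours with 5-FU at 1 µM or with disulfiram (DSF) at 0.1 µM, or kept as controls. The labels give no time for the controls. DSF is a drug against alcohol dependence that inhibits aldehyde dehydrogenase. Cells positive for the surface protein EpCAM were sorted, so each profile describes a sorted fraction and not the whole culture. Each of the 6 groups had 3 one-colour arrays, 18 in all, which the methods attribute to independent experiments. According to the methods DSF was given with copper chloride, and neither they nor the labels say what the control cells received. The lines are only 2 models of the disease, and a difference between them cannot be assigned to any single property of a line.

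All 6 hepatocyte-lineage and HCC genes examined (ALB, AFP, APOA1, TTR, GPC3 and EPCAM) were well above background on all 18 arrays. Among genes of other cell types, CD3E was above background on 6 arrays, COL1A1 on 11, COL1A2 on 3 and PDGFRB on 5. PTPRC, CD68, PECAM1 and CDH5 were above background on all 18 arrays and VWF on 17. The summed signal of these 9 genes, as log2, was 0.50 to 0.54 in Huh7 controls and 1.54 to 2.12 after 5-FU. In Huh1 it was 1.45 to 2.30 and 2.26 to 2.35. CD68 alone made up most of this sum. Its means were 0.061 and 1.65 in Huh7 and 1.46 and 2.14 in Huh1, so the sum does not describe the other genes. Signals are given as log2 of the processed spot intensity minus that of the 75th percentile of the same array, so 0 is the 75th percentile and a step of 1 is a doubling. Array spots of known amount (7 spike-in probes) showed that the 75th percentile lay 0.83 (log2) higher relative to the spike-ins after 5-FU in Huh1 and 0.98 higher in Huh7. All changes below are therefore changes relative to the other probes of the array. In RNA from a sorted population, fewer expressing cells and less RNA per cell cannot be told apart.

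5-FU is a uracil analogue that must be turned into nucleotides before it acts. UMPS and, after conversion to the nucleoside, UCK2 lead to the ribonucleotides, while TYMP and then TK1 lead to the deoxynucleotide that blocks thymidylate synthase, TYMS. RRM2, the regulatory subunit of ribonucleotide reductase, supplies deoxynucleotides and links the ribonucleotide and deoxynucleotide branches. DPYD starts the degradation of the drug, which in the body takes place mainly in the liver, and SLC29A1 (ENT1) carries nucleosides across the plasma membrane.

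TYMS, TK1 and RRM2 are genes of DNA precursor synthesis, known to be transcribed mainly around S phase, and they rose together after 5-FU in Huh7. The sequences of their promoters are shown for that reason. Each run covers the 250 bases before an annotated start (RefSeq, GRCh38.p14), 5′ to 3′ on the strand of the gene, and ends at the base before the start. Capitals mark CCAAT or its reverse complement ATTGG, a box bound by NF-Y, and TTTNNCGC or its reverse complement GCGNNAAA, letters that resemble E2F sites.
TYMS, chr18:657403-657652, plus strand: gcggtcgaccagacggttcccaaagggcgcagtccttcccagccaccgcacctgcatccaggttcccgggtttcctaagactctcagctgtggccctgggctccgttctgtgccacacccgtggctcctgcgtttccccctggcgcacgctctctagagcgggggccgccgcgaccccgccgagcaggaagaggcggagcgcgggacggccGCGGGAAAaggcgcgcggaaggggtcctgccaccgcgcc
TK1, chr17:78187053-78187302, minus strand: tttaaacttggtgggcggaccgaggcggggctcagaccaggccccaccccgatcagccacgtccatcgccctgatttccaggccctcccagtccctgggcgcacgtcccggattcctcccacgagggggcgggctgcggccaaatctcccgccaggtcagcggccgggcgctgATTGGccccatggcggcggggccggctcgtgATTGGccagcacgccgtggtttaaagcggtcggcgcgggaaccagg
RRM2, chr2:10122489-10122738, plus strand: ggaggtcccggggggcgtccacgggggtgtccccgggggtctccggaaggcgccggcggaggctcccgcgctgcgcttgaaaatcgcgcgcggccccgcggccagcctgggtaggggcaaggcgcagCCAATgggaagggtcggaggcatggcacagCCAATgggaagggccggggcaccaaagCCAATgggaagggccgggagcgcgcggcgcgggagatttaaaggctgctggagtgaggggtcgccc
The RRM2 run holds 3 CCAAT matches, which start 123, 93 and 66 bases before the start. The TK1 run holds 2 matches in the reverse orientation, and the TYMS run holds none but has a single GCGNNAAA match. TK1 and RRM2 each have a second annotated start further upstream, so parts of the printed runs are transcribed from it. The windows of these starts are not shown and held fewer CCAAT matches, 0 for TK1 and 1 for RRM2. Over 35116 promoter windows of 300 bases, CCAAT on either strand was present in 34.6%, in at least 3 copies in 3.26% and in at least 2 copies in 10.75%, and TTTNNCGC was present in 6.9%. The UMPS window, from a gene that also rose in Huh7, held neither motif. CCAAT was present once in windows of TYMP, which fell after 5-FU in both lines, and of UCK2, which was not called after 5-FU. These matches are letters in a window, and no binding was measured.

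The first question was how the untreated lines differ in these genes. The control levels of 7 of 8 genes differed between Huh7 and Huh1 (limma, Benjamini-Hochberg adjusted p under 0.05 over 29905 tested probes), 3 higher and 4 lower in Huh7. Differences between the lines were common, since 70.7% of all tested probes were called in the same comparison, 34.5% higher and 36.2% lower. The control arrays of Huh1 were hybridised on slide 1 and those of Huh7 on slide 2. With the slide as a fixed block, 4 genes remained called: DPYD, TYMS, UCK2 and UMPS.

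The largest difference was that of DPYD. Its brighter probe (A_23_P135548) measured -4.94, -3.79 and -3.78 in the Huh1 controls and 0.55, 0.64 and 0.59 in the Huh7 controls. All 9 Huh7 arrays, treated or not, lay above all 9 Huh1 arrays. Huh7 was 27.2-fold higher (log2 difference 4.77, SE 0.24, limma adjusted p = 2.0e-10). Without the lowest array, Huh1 control replicate 1, the difference was 4.38, or 20.8-fold. Background correction by normexp gave 3.72. The other DPYD probe (A_24_P410610), assigned to another transcript of the gene, showed the same direction but a much smaller difference. It measured -4.21, -3.78 and -4.13 in Huh1 and -3.17, -3.29 and -3.32 in Huh7, a 1.72-fold difference (log2 0.78, SE 0.13, limma adjusted p = 9.4e-05). The size of the DPYD difference thus depended on the probe. In Huh1 controls both probes were dim, with means of -4.17 and -4.04, though above background on all arrays. For comparison, the leukocyte gene PTPRC had a mean of -4.50 there. The fold differences thus rest on low signals in Huh1.

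The next enzymes of the same degradation route, described after their values were seen, went the other way. DPYS, dihydropyrimidinase, was well above background on all 3 arrays of each Huh1 group and on no Huh7 array. UPB1, which completes the route, was lower in Huh7 controls by 2.78 on the log2 scale, with a limma adjusted p of 5.4e-11. These are both of the catabolic genes in the pathway list described below.

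Among the genes of drug activation, UCK2 and UMPS were lower in Huh7. UCK2, uridine-cytidine kinase, measured 4.32, 4.33 and 4.19 in Huh1 controls and 3.27, 3.29 and 3.34 in Huh7 controls, which is 1.97-fold lower (limma adjusted p = 1.9e-07). UMPS, the enzyme that ends de novo UMP synthesis, measured 4.49, 4.49 and 4.47 in Huh1 against 3.63, 3.64 and 3.70 in Huh7. Its level was 1.77-fold lower (limma adjusted p = 3.6e-08). The drug target followed the same order. TYMS measured 5.25, 5.15 and 5.13 in Huh1 against 4.55, 4.52 and 4.57 in Huh7 and was 1.55-fold lower in Huh7 (limma adjusted p = 8.9e-07). These calls come from a comparison where 70.7% of all tested probes were called.

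Differences in the remaining genes were small. TYMP, thymidine phosphorylase, measured 6.68, 6.70 and 6.60 in Huh1 controls and 6.65, 6.69 and 6.59 in Huh7 controls, and the groups overlapped. The difference was -0.017 with a 95% interval from -0.52 to 0.48. For each gene the fit uses a single spread for all groups, so this interval does not describe the controls alone. The standard deviation of TYMP was 0.053 in Huh1 controls and 0.050 in Huh7 controls. It was 0.67 in Huh7 with DSF and 0.16 to 0.19 in the remaining groups. The differences of SLC29A1 (-0.32), RRM2 (0.26) and TK1 (0.19) passed the threshold, with limma adjusted p of 0.016, 0.023 and 0.031. Each of the 3 calls was lost when 1 control array was left out, for example Huh1 control replicate 2, without which the values were -0.28, 0.22 and 0.18, and each was lost with the slide as a fixed block.

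**Figure D1:**
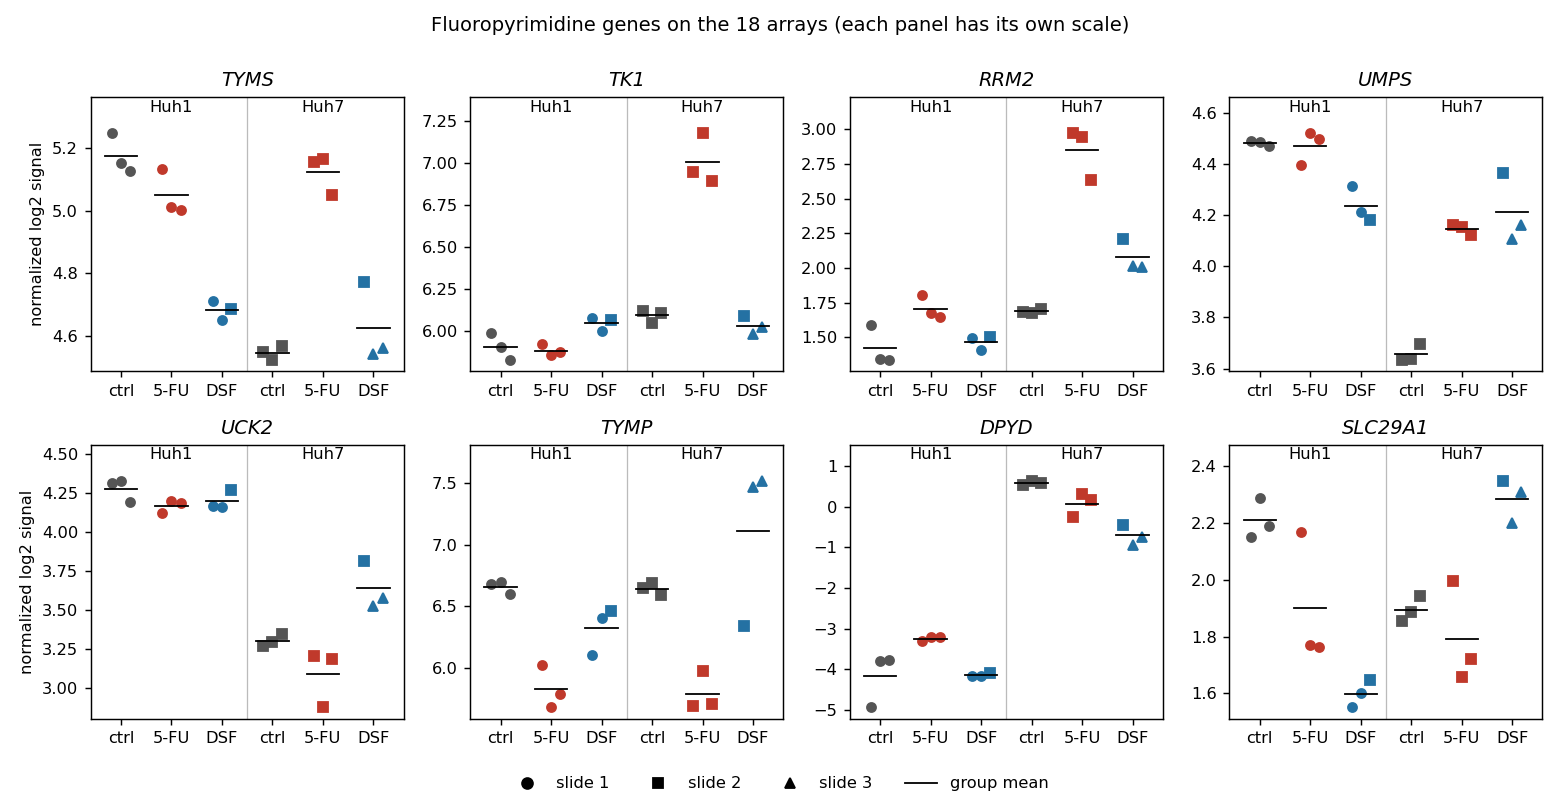
Normalized log2 signal (y axis, relative to the 75th percentile of each array) of the 8 genes in Huh1 and Huh7, with a panel and a scale for each gene and DPYD shown by its brighter probe. Each point is an array, its shape gives the slide and the line is the mean of 3 arrays; in Huh7, TYMS, TK1, RRM2 and UMPS lie higher after 5-FU than in the controls, TYMP lies lower after 5-FU in both lines, and the Huh7 DSF arrays of slide 3 stand apart for TYMP.

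The main question was whether cells exposed to 5-FU changed the genes that handle the drug. In each line the control and the 5-FU arrays shared a slide, so slide does not enter these comparisons. In Huh7, 5 of 8 genes were called after 5-FU, 4 higher and 1 lower, against 57.1% of all tested probes (27.3% higher and 29.7% lower). In Huh1, 4 of 8 were called, 2 higher and 2 lower, against 48.2% of all probes (22.2% higher and 26.0% lower). The median change of the 8 genes was 0.19 in Huh7 and -0.068 in Huh1, where the medians of all probes were -0.048 and -0.033.

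TYMS, the target itself, rose in Huh7. The control arrays measured 4.55, 4.52 and 4.57 and the 5-FU arrays 5.16, 5.17 and 5.05. Each treated array lay above each control array, and the rise was 1.49-fold (log2 0.58, SE 0.068, limma adjusted p = 4.9e-06). In Huh1 the values were 5.25, 5.15 and 5.13 without and 5.13, 5.01 and 5.00 with 5-FU. These groups overlapped, and the difference of -0.13 did not pass the test (95% interval -0.27 to 0.019, limma adjusted p = 0.14). After 5-FU, TYMS in Huh7 was at 5.12 on average, within the range of the Huh1 controls and treated arrays.

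TK1, thymidine kinase, phosphorylates thymidine and the deoxynucleoside of 5-FU. It measured 6.12, 6.05 and 6.11 in Huh7 controls and 6.95, 7.18 and 6.90 after 5-FU, a 1.89-fold rise (limma adjusted p = 8.4e-08). The 3 treated Huh7 arrays were the highest of all 18. In Huh1, TK1 measured 5.99, 5.90 and 5.83 without and 5.92, 5.85 and 5.87 with 5-FU. The groups overlapped, with a difference of -0.024 (95% interval -0.18 to 0.13).

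RRM2 showed the largest rise of the set. In Huh7 it went from 1.68, 1.68 and 1.70 to 2.97, 2.95 and 2.63, which is 2.24-fold (log2 1.16, SE 0.096, limma adjusted p = 1.4e-07). In Huh1 the control arrays measured 1.59, 1.34 and 1.34 and the treated arrays 1.80, 1.67 and 1.64. Here too the groups did not overlap, but the rise was 1.22-fold (limma adjusted p = 0.024). The Huh1 call was lost without Huh1 control replicate 2, Huh1 control replicate 3 or Huh1 5-FU replicate 1, with values of 0.24, 0.24 and 0.24. The other subunit genes of the enzyme, also picked after their values were seen, were not called higher in either line: RRM1 changed by 0.02 in Huh1 and -0.05 in Huh7, neither called, and RRM2B, the subunit induced by p53, by 0.01 (not called) and -0.32 (called).

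UMPS rose in Huh7 from 3.63, 3.64 and 3.70 to 4.16, 4.15 and 4.12, without overlap. The rise was 1.40-fold (limma adjusted p = 2.1e-05). In Huh1 it measured 4.49, 4.49 and 4.47 without and 4.40, 4.52 and 4.50 with 5-FU, a difference of -0.012 (95% interval -0.15 to 0.13). UCK2 did not pass the test in either line. Its Huh7 arrays measured 3.27, 3.29 and 3.34 without and 3.20, 2.88 and 3.18 with 5-FU, a difference of -0.21 with limma adjusted p = 0.059. Without Huh7 5-FU replicate 1 or 3 it passed, at -0.27 and -0.26. In Huh1, where the UCK2 arrays were 4.32, 4.33 and 4.19 against 4.12, 4.20 and 4.19, the difference was -0.11 (95% interval -0.31 to 0.085).

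TYMP was the only gene of the set called lower after 5-FU in both lines. In Huh1 it measured 6.68, 6.70 and 6.60 in controls and 6.03, 5.68 and 5.78 after 5-FU, a 1.78-fold fall (limma adjusted p = 0.0089). In Huh7 the values were 6.65, 6.69 and 6.59 against 5.69, 5.97 and 5.70, a 1.81-fold fall (limma adjusted p = 0.0058). No treated array reached the lowest control array of its line. These p-values also rest on the spread of all groups, which for TYMP was widest in Huh7 with DSF. With scaling to the spike-in probes instead of the 75th percentile the values were -0.0018 in Huh1 and 0.13 in Huh7. That scaling shifted the median of all probes after 5-FU to 0.79 and 0.94, so TYMP lay below the median on both scales. Quantile normalization gave -0.50 in Huh7, with limma adjusted p = 0.053.

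The DPYD probes did not give a common answer, and both were dim in Huh1. In Huh1 the brighter probe measured -3.31, -3.21 and -3.21 after 5-FU, against -4.94, -3.79 and -3.78 in controls. The rise was 1.90-fold (limma adjusted p = 0.0062), and 1.45-fold without Huh1 control replicate 1. With normexp background correction it was 0.34 on the log2 scale and no longer called (limma adjusted p = 0.059). In Huh7 this probe measured -0.26, 0.32 and 0.17 after 5-FU, all below the controls, but the difference of -0.52 did not pass (limma adjusted p = 0.084). The other probe measured -3.74, -4.01 and -4.14 in Huh1 after 5-FU, overlapping its controls. In Huh7 it measured -3.04, -3.02 and -2.60, which was higher than in controls by 0.37 (limma adjusted p = 0.026). In Huh7 the probes thus pointed in opposite directions, and no change of DPYD as a gene can be given from these arrays.

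**Figure D2:**
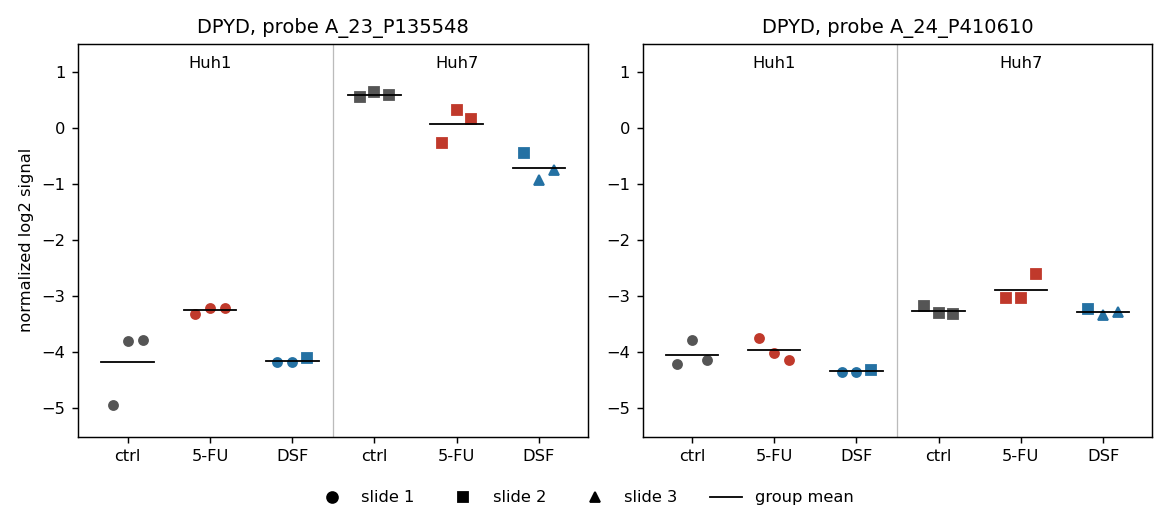
Normalized log2 signal (y axis) of the DPYD probes A_23_P135548 (left) and A_24_P410610 (right) in the 6 groups, on the same scale. Points are arrays, shapes are slides and lines are group means of 3 arrays; both probes lie higher in Huh7 than in Huh1, by 4.77 and 0.78 in the controls, and after 5-FU in Huh7 the left probe lies lower and the right probe higher than the controls.

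SLC29A1 measured 2.15, 2.29 and 2.19 in Huh1 controls and 2.17, 1.77 and 1.76 after 5-FU. The difference of -0.31 was called (limma adjusted p = 0.027), although the highest treated array lay within the controls. The call was lost without any of 4 arrays: Huh1 control replicates 2 and 3 and Huh1 5-FU replicates 2 and 3, where the difference was -0.27, -0.32, -0.24 and -0.24. In Huh7 the arrays measured 1.86, 1.89 and 1.94 without and 2.00, 1.66 and 1.72 with 5-FU. They overlapped, with a difference of -0.10 (95% interval -0.33 to 0.13).

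**Figure D3:**
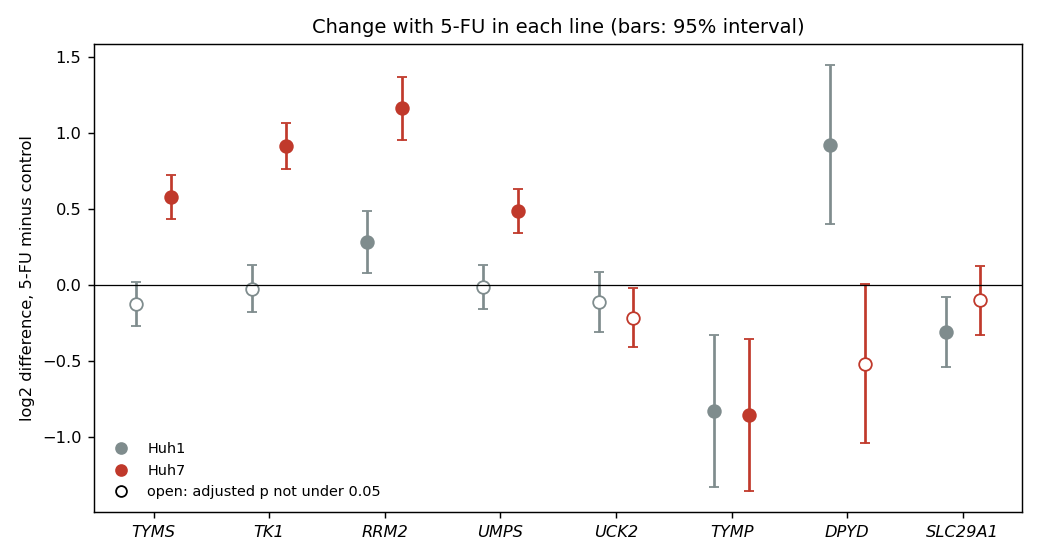
Change with 5-FU (y axis, log2 difference from controls) of the 8 genes in Huh1 (grey) and Huh7 (red), 3 arrays per group, with DPYD by its brighter probe. Bars are 95% intervals and open points did not pass the test; RRM2, TK1, TYMS and UMPS lie higher in Huh7, at 1.16, 0.91, 0.58 and 0.49, and TYMP lies near -0.83 and -0.86 in the lines.

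The difference between the lines was tested directly, as the change in Huh7 minus the change in Huh1. It was called for 5 of 8 genes, 4 with the larger value in Huh7 and 1 with the smaller, against 36.6% of all tested probes (18.8% higher and 17.8% lower in Huh7). The difference was 0.94 for TK1 (limma adjusted p = 9.1e-06), 0.88 for RRM2 (limma adjusted p = 0.00019), 0.71 for TYMS (limma adjusted p = 6.7e-05) and 0.50 for UMPS (limma adjusted p = 0.00091). These 4 genes were called under all 11 alternatives run for them. For DPYD the brighter probe gave -1.44 (limma adjusted p = 0.0046) and the other probe 0.30, not called. TYMP gave -0.025 (95% interval -0.73 to 0.68), UCK2 -0.10 (95% interval -0.38 to 0.18) and SLC29A1 0.21 (95% interval -0.12 to 0.53), none of them called. The TYMP interval again carries the wide spread of the Huh7 DSF arrays, which are not part of this difference. Without Huh1 5-FU replicate 1 the SLC29A1 difference was 0.34 and passed (limma adjusted p = 0.038).

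Genes of S phase moved in the same comparison. The list held 19 genes: minichromosome maintenance, origin licensing and replication factors, the cyclins CCNE1, CCNE2 and CCNA2, the transcription factor E2F1 and the proliferation marker MKI67. After 5-FU in Huh7, 14 rose and 1 fell, with a median of 0.45, where 57.1% of all probes were called and their median was -0.048. In Huh1, 6 rose and 7 fell, with a median of -0.015, where 48.2% were called and the median was -0.033. Scaled to the spike-in probes, which shifts all probes, the counts were 18 up and 0 down in Huh7 and 15 up and 0 down in Huh1. The difference between the lines was called for 14 genes (36.6% of all probes), all with the larger value in Huh7, and had a median of 0.64. With spike-in scaling it was called for 13, again with the larger value in Huh7. The largest rises in Huh7 were those of CCNE2 (2.23), encoding a cyclin of S-phase entry, the licensing factor CDC6 (2.08) and the helicase subunits MCM5 (0.93) and MCM2 (0.87). The corresponding changes in Huh1 were 0.99, 0.86, 0.12 and 0.43, of which MCM5 was not called. The part of the S-phase genes in the rise of TYMS, TK1 and RRM2 was not tested.

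Markers of other cell types were also compared after 5-FU, and in Huh7 their arrays were separated about as often as those of all probes. All treated arrays lay above all controls for 5 of 9 such genes and below them for 1, against 66.3% of all tested probes without overlap. In Huh1 it was 1 above (CD68) and 2 below, against 56.2%. Those below were COL1A1, from -6.60 to -8.41, and COL1A2, from -7.56 to -8.28. The means in Huh7 went from 0.061 to 1.65 for CD68, from -2.47 to -1.45 for PECAM1, from -3.90 to -3.34 for COL1A1, from -7.17 to -5.07 for PDGFRB and from -7.33 to -5.57 for COL1A2. PDGFRB and COL1A2 were above background on 0 of 3 control arrays. The gene below its controls in Huh7 was the endothelial gene VWF, which went from -5.35 to -5.87. PTPRC, which marks leukocytes, measured -4.77 and -4.83. CD3E (-6.51 and -7.06) and CDH5 (-4.15 and -3.98) overlapped as well. The part of these genes in the changes of the fluoropyrimidine genes was not tested.

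The wider pathway list held 55 further genes of pyrimidine and folate metabolism, of which 52 had a named probe and 50 could be tested. After 5-FU 8 rose and 17 fell in Huh1, where 48.2% of all probes were called. In Huh7 18 rose and 20 fell, where 57.1% were called. The list medians were -0.14 and -0.022. With spike-in scaling the counts were 40 up and 0 down in Huh1 and 42 up and 3 down in Huh7, so the directions of the pathway genes below hold relative to the other probes of the array. The difference between the lines was called for 13 genes higher and 10 lower in Huh7, where 36.6% of all probes were called, with a median of 0.068. The genes named are those called in the same direction in both lines with a change of at least 1 in a line.

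Of these 7 genes, 3 rose and 4 fell. The ectonucleotidase NT5E, which makes nucleosides outside the cell, rose by 1.04 in Huh1 and 0.74 in Huh7. CTPS1, CTP synthase, rose by 0.29 and 1.32, and the efflux transporter ABCC11, known to export the monophosphate of the 5-FU deoxynucleoside, by 0.83 and 1.28. The mitochondrial 5′-nucleotidase NT5M changed by -1.13 and -2.28. DHODH, the enzyme just before UMPS in de novo synthesis, changed by -1.10 and -1.83. SHMT2, which feeds the mitochondrial folate pool, changed by -1.12 and -1.05. SLC22A7, an organic anion transporter of hepatocytes, changed by -0.40 and -1.24.

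A few further genes, picked after their values were seen, differed between the lines. CAD, which catalyses the first steps of de novo synthesis, changed by -0.62 in Huh1 and 0.40 in Huh7, both called. SLC29A3, an intracellular nucleoside transporter related to SLC29A1, changed by -0.36 and 1.22, both called. DUT, which removes dUTP and its fluorinated analogue, changed by -0.18, not called, and by 0.64, called. De novo synthesis in Huh7 was thus not uniform, since CAD and UMPS rose while DHODH, which acts between them, fell.

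**Figure D4:**
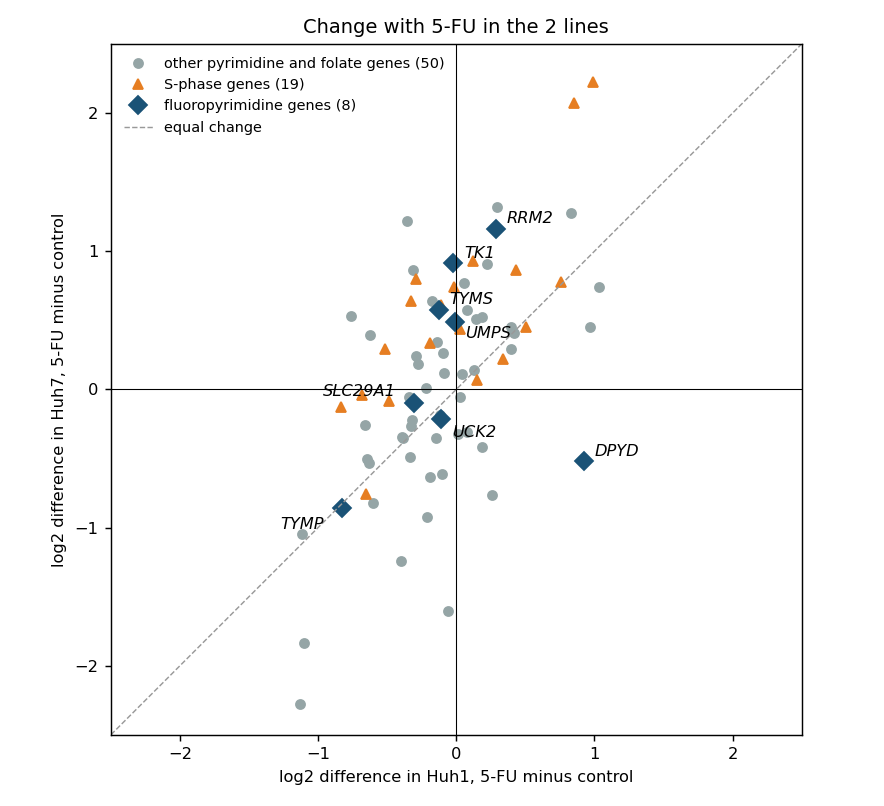
Change with 5-FU in Huh1 (x axis) and in Huh7 (y axis), both as log2 differences from the controls of the line, for the 8 fluoropyrimidine genes, 50 other pyrimidine and folate genes and 19 S-phase genes. The dashed line marks equal change; TYMS, TK1, RRM2 and UMPS lie above it together with most S-phase genes, TYMP lies on it at -0.83 and -0.86, and DPYD (brighter probe) lies below it.

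DSF was given at a lower concentration than 5-FU, and its controls are the same arrays as above. In Huh1, 0 genes rose and 3 of 8 fell, against 44.2% of all probes called (23.9% higher and 20.3% lower). SLC29A1 measured 1.55, 1.60 and 1.65 after DSF, below all controls, and fell by 0.61 (limma adjusted p = 0.00031). TYMS measured 4.71, 4.65 and 4.68 and fell by 0.49 (limma adjusted p = 4.2e-05), and UMPS measured 4.31, 4.21 and 4.18 and fell by 0.25 (limma adjusted p = 0.0077). Huh1 DSF replicate 3 was the only one of these arrays on slide 2, and the values within slide 1 were -0.63, -0.49 and -0.22. Of the 50 pathway genes, 5 rose and 29 fell after DSF in Huh1 (median -0.30, all probes 0.0023). Of the 19 S-phase genes, 1 rose and 8 fell (median -0.13). With spike-in scaling the counts were 4 up and 10 down, and 1 up and 2 down.

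In Huh7, 5 of 8 genes were called after DSF, 4 higher and 1 lower, against 46.7% of all probes (27.3% higher and 19.4% lower). Here SLC29A1 rose, from 1.86, 1.89 and 1.94 to 2.35, 2.20 and 2.31 (log2 0.39, limma adjusted p = 0.0080). The opposite directions of SLC29A1 in the lines were not tested against each other. UMPS measured 4.37, 4.11 and 4.16 and rose by 0.55, RRM2 measured 2.21, 2.02 and 2.01 and rose by 0.39, and UCK2 measured 3.82, 3.53 and 3.58 and rose by 0.34. The brighter DPYD probe measured -0.44, -0.93 and -0.74, a change of -1.30, while the other DPYD probe changed by -0.020 and was not called. TYMS and TK1, which rose after 5-FU in this line, changed by 0.079 and -0.063 after DSF, neither called. Of the 50 pathway genes, 12 rose and 16 fell after DSF in Huh7. Of the 19 S-phase genes, 9 rose and 2 fell (median 0.19, all probes 0.082). With spike-in scaling the counts were 2 up and 17 down, and 1 up and 2 down. The list counts include the Huh7 DSF arrays of slide 3 (replicates 2 and 3). Without these arrays the pathway median was -0.0078, against -0.0008 with all arrays, and the S-phase median was 0.25.

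Huh7 DSF replicates 2 and 3 were alone on slide 3. Without them a single DSF array remains, whose spread is assumed to equal that of the other groups, and the changes were 0.45 for SLC29A1 (limma adjusted p = 0.051), 0.71 for UMPS, 0.52 for RRM2, 0.51 for UCK2 and -1.03 for DPYD. Only the SLC29A1 call among these 5 was lost. TYMP depended on the slide: it measured 6.34 on slide 2 but 7.47 and 7.52 on slide 3. Its difference from the controls was 0.47 with all arrays (limma adjusted p = 0.12), -0.30 without slide 3 and 0.85 without the array of slide 2.

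Set against DSF in the same line, 5-FU gave higher levels of TK1 (0.98), RRM2 (0.77) and TYMS (0.50) in Huh7, all called, as were 7 of 8 genes and 60.5% of all probes. In Huh1 the same differences were -0.17, 0.24 and 0.37, of which TYMS was called. There 4 of 8 genes and 49.2% of all probes were called. The Huh7 comparison is partly one of slides, since Huh7 DSF replicates 2 and 3 were on slide 3. Within slide 2, against a single DSF array, the Huh7 differences were 0.92 for TK1, 0.64 for RRM2 and 0.35 for TYMS.

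Over the 6 groups, the order of the levels was resolved in part. RRM2 was highest in Huh7 with 5-FU (mean 2.85), then Huh7 with DSF (2.08), neither overlapping the next group, while Huh1 with 5-FU (1.71) and the Huh7 controls (1.69) overlapped, as did Huh1 with DSF (1.47) and the Huh1 controls (1.42). TK1 was highest in Huh7 with 5-FU (7.01), and its other 5 groups, between 5.88 and 6.09, each overlapped the next. TYMS formed a high set of Huh1 controls, Huh7 with 5-FU and Huh1 with 5-FU (5.18, 5.12 and 5.05) and a low set of Huh1 with DSF, Huh7 with DSF and Huh7 controls (4.68, 4.62 and 4.55), with overlap inside each set and none between them. For UCK2 every Huh1 group lay above every Huh7 group, from 4.17 to 4.28 against 3.09 to 3.64.

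For genes whose group means spanned at least 1, the closest profiles were sought by the root mean square difference of the 6 centred group means. The nearest named genes were NUFIP2, CFAP61 and MSL3 for TK1 (0.11, 0.11 and 0.12), PHF20L1, STXBP5 and PIGG for RRM2 (0.098, 0.10 and 0.11), and LYRM7 and MINDY4 for UCK2 (0.044 and 0.071). For TYMP they were RBAK-RBAKDN, CD300E and LOC100128593 (0.057, 0.062 and 0.10), and for DPYD L3MBTL3, RAB6B and LCORL (0.21, 0.24 and 0.25). With 6 points per gene, the profiles share their arrays and their slides, and these are descriptions of likeness.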

How the data were processed

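Total RNA of EpCAM+ cells was labelled with Cy3 and hybridised to Agilent whole-genome arrays. The authors deposited the scanner output of each array, in which spot intensity had been background-subtracted and detrended by Agilent Feature Extraction 10.7.1.1, according to the submitters' processing notes and the files (the methods name another version). They also deposited a normalized intensity table made in GeneSpring, in which the 75th percentile of each column was 1.00 to 1.01 and the medians were 0.0685 to 0.0833. It differed from the values used here by a single constant per array, within 0.05 (log2) for 100% of probes.

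Outlier spots (316 to 447 per array) were dropped, 0 spots were saturated, replicate spots of a probe were averaged as log2 intensity, and the log2 75th percentile of each array was subtracted. Of 42405 probes, 78 were left out for lack of an unflagged spot, and 29905 were tested, namely those that every array of some group measured well above background. The probes of all members passed on all 18 arrays, so no member was lost to this filter. Symbols came from RefSeq accessions (25771 probes), and the probe with the highest mean over all arrays stands for a gene. All 18 arrays entered a limma fit (limma 3.58.1, R 4.3.3) with 6 group means, two-sided, with Benjamini-Hochberg adjustment over all tested probes and a threshold of 0.05. The script was tested on simulated data. Only 3 arrays per group limit the precision; the rank test that the methods name for comparing groups cannot give an exact p below 0.1 with 3 against 3.

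Replicate numbers do not pair the arrays: deviations of equally numbered arrays correlated between -0.093 and 0.10 (median -0.025). Paired replicates of a group differed by a median of 0.057 to 0.22, so no array was a copy of another. Alternatives were normexp background (offset 50, on the median spot signal, since the planned mean signal was not among the columns), quantile, median and spike-in scaling, the series table, no filter on dim probes, slide as a fixed or random block, the replicate block, the compared arrays alone, the mean of all probes of a gene, and leaving out each array. Leaving out slide 3 was chosen after seeing the data. The members, the pathway and S-phase lists, the cell type markers and the rule for named genes were chosen with earlier results of these data known. All members are named. Other pathway genes are named by rule when called in the same direction after 5-FU in both lines with a change of at least 1 in a line (RRM1, RRM2B, DPYS, UPB1, CAD, SLC29A3 and DUT were added after their values were seen), and S-phase genes when among the 4 largest changes in Huh7. A further gene with a profile near that of UCK2 is not reported here. Figures were drawn with Python 3.11.15 and matplotlib 3.10.9.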

Additional observations from a re-analysis of the deposited data

Results flagged for a closer look

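The effect of 5-FU differed between the lines for TK1, RRM2, TYMS, UMPS and a single probe of DPYD by the test of the difference itself (change in Huh7 minus change in Huh1, limma adjusted p under 0.05). The value was 0.94 for TK1, 0.88 for RRM2, 0.71 for TYMS and 0.50 for UMPS, all with the larger value in Huh7. It was -1.44 for the brighter DPYD probe, with changes of 0.92 in Huh1, where the probe was dim, and -0.52 in Huh7. For the other DPYD probe it was 0.30, not called (limma adjusted p = 0.25). Over the 12 alternatives run for DPYD the value ranged from -1.44 to -0.57 and was called in 11, the exception being the mean of both probes (-0.57, limma adjusted p = 0.064).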

How the results depend on the processing

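The difference of the 5-FU effect between the lines was called for 5 genes under the alternatives that keep all arrays and 1 probe per gene, and for 5 to 6 when an array was left out. By the mean of its probes DPYD was not called (-0.57). Of 611 alternative values of single genes, 528 kept their direction and their side of the threshold. This share is raised by settings that could change little. The series table, equal up to a constant per array, kept all 54 of its values. No filter, the replicate block and the compared arrays alone leave each difference as it is. Spike-in scaling kept 27 values and turned 15 in direction. The numbers do not pair the arrays, and with the replicate block the counts were 7 (Huh7 against Huh1 controls), 4 and 5 (5-FU in Huh1 and Huh7), 3 and 5 (DSF), 5 and 7 (5-FU against DSF) and 5 (difference between lines). RRM2 in 5-FU against DSF in Huh1 became called under it.

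Counts moved with spike-in scaling to 4 for the control lines (1 higher, 3 lower), to 7 for 5-FU in Huh1 and for 5-FU against DSF in Huh1 (all higher), to 0 and 1 for DSF in Huh1 and Huh7, while 6 (all higher) were called for 5-FU in Huh7. The cause was not tested beyond the shift of the median of all probes, 0.79 in Huh1 and 0.94 in Huh7 after 5-FU and 0.61 and 1.04 for 5-FU against DSF. Over all probes that scaling called 22377 higher and 366 lower after 5-FU in Huh1, against 6643 and 7767 as reported, and 22928 and 1038 in Huh7, against 8175 and 8891. Median scaling gave 4755 calls up and 9636 down for DSF in Huh1, against 7160 and 6066, and spike-in scaling 7071 and 2398 there and 3206 and 6132 in Huh7, against 8177 and 5800. Normexp called 5445 and 13062 in Huh1 and 7216 and 13377 in Huh7. The slide as a fixed block gave 4 for the control lines, where Huh1 and Huh7 are joined only through DSF arrays. The fit of the compared arrays alone, with fewer arrays for the spread, gave 1 for 5-FU in Huh1. With 1 array left out, the counts ran from 4 to 7 for the control lines, 2 to 4 and 5 to 6 for 5-FU in Huh1 and Huh7, 3 to 3 and 4 to 6 for DSF, and 3 to 4 and 6 to 7 for 5-FU against DSF. The control-line count of 4 was without Huh1 control replicate 2 and the count of 2 for 5-FU in Huh1 without Huh1 control replicate 2 or 3.

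Direction turned mainly for differences that were not called. The called ones that turned did so with spike-in scaling: SLC29A1 after 5-FU in Huh1 (reported as -0.31) and TYMP after 5-FU in Huh7 (reported as -0.86). Spike-in scaling turned, after 5-FU in Huh1, TYMS (0.70), UCK2 (0.72), UMPS (0.82), TK1 (0.80) and SLC29A1 (0.52), and in Huh7 DPYD (0.46), TYMP (0.13), UCK2 (0.77) and SLC29A1 (0.88). It also turned TYMP (0.053) in the control lines, UCK2 (0.055) after DSF in Huh1, TYMS (-0.098) after DSF in Huh7, TK1 (0.53) in 5-FU against DSF in Huh1, and TYMP (0.13) and UCK2 (0.053) in the difference between lines. Quantile normalization turned TYMP (0.083) in the control lines, TYMS (0.083), UMPS (0.11) and TK1 (0.29) after 5-FU in Huh1, DPYD (-0.18) after DSF in Huh1, TYMS (-0.032) after DSF in Huh7, TK1 (0.080) in 5-FU against DSF in Huh1 and TYMP (0.065) in the difference between lines. Median scaling turned DPYD (-0.15), TK1 (-0.031) and RRM2 (-0.13) after DSF in Huh1 and TYMP (0.028) in the difference between lines. Normexp turned UMPS (0.026) after 5-FU in Huh1 and DPYD (-0.036) after DSF in Huh1, where the mean of all probes gave -0.14. The slide as a random block turned TYMP (0.024) in the control lines, and as a fixed block DPYD (-0.00080) after DSF in Huh1 and TYMP (-0.30) after DSF in Huh7, as did leaving out slide 3 (-0.30). Leaving out 1 array turned UMPS (0.026) and TK1 (0.018) after 5-FU in Huh1, DPYD (-0.36) after DSF in Huh1, and TYMP (0.073) and UCK2 (0.0032) in the difference between lines. It also turned TYMP (0.0016 and 0.0090) in the control lines, UCK2 (0.0037) in 5-FU against DSF in Huh1 and UMPS (0.012) in the same comparison in Huh7.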
